A study of Sus scrofa with 2 samples.

Results

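The neuromuscular junction and acetylcholine receptor genes were examined in biceps femoris muscle of cloned piglets. The deposited tables held 9 entries for them, out of 12535 genes with at least 1 unique read in either library. Members were the entries that carried 1 of 10 chosen gene symbols, or whose best protein match was described as an acetylcholine receptor subunit, muscle-specific kinase, rapsyn, acetylcholinesterase, agrin or neural cell adhesion molecule 1. CHRND carried its symbol in the tables, 7 entries were found by protein description, and RAPSN was found by the RefSeq symbol of its Entrez number. CHRNB1, ACHE and AGRN were not analysed here, while the description also brought in CHRNA10 and CHRNA5, which encode receptor subunits of the neuronal type.

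Pooled RNA gave 1 RNA-seq library for each group: 3 abnormal cloned piglets went into one pool, and the normal cloned piglets in the other numbered 4 in the methods of the study and 3 in the sample labels. All were produced by somatic cell nuclear transfer from fibroblasts of male pigs and sampled on Day 1 after birth, and the abnormal piglets had an enlarged tongue, an umbilical defect and difficulty in standing and walking. Embryonic fibroblasts of a male Large White pig were the donor cells of all 3 abnormal and of 2 normal piglets, whereas the other 2 normal piglets derived from a second male's ear fibroblasts, and this partial difference in donor cannot be told apart from the phenotype. The abnormal library held 6.38 M and the normal library 6.52 M unique reads. Because neither group has a second library, differences have no replicate check, and the Audic-Claverie test applied here is a comparison of the reads of these libraries and not of the conditions.

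At the neuromuscular junction, acetylcholine released by the motor nerve opens a pentameric receptor on the muscle fibre. The receptor is built from alpha (CHRNA1), beta (CHRNB1) and delta (CHRND) subunits with a gamma subunit (CHRNG) in fetal muscle, which is replaced by the epsilon subunit (CHRNE) as the junction matures around birth. Nerve-derived agrin acts through LRP4 and the kinase MuSK, with the adaptor DOK7, to gather receptors under the nerve ending, where rapsyn (RAPSN) anchors them. Fibres that lose their nerve supply are known to express receptor genes again along their whole length. The fibre markers ACTA1, TTN, MYH1, MYH2 and MYLPF stood between 182 and 42258 RPKM (reads per kb of transcript and per M unique reads) in the abnormal library for the longer or sole entry of each. Of all 7 fibre entries, 5 were lower in the abnormal library and 2 were called down-regulated. These 2 were the slow myosin MYH7 (3.12 against 35.9 RPKM) and a second TTN entry (20.8 against 45.5 RPKM). Reads covered only 3.75% (abnormal) and 3.97% (normal) of the MYH7 model, so its RPKM is an uncertain measure of the gene's level. Coverage of that TTN entry was 37.28% (abnormal) and 37.41% (normal). The median log2 ratio of the 7 fibre entries was -0.078, and after rescaling, explained in the next paragraph, it was -0.44 with all 7 lower. After rescaling 49.7% of all genes were higher, and the 2 down-regulated calls remained, against 3.97% of all genes.

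Up-regulation in the abnormal cloned group was called for 2 of the 9 members and down-regulation for 0. A gene was called when its FDR did not exceed 0.001 and its RPKM differed by at least 1 on the log2 scale (abnormal over normal). Over all 12535 genes, 12.0% were called up-regulated and 1.45% down-regulated by the same thresholds, and 18.5% of the 7493 genes read at least 10 times in each library were up-regulated. The called members were CHRNA1 and CHRNA10, and with that filter, which kept 6 members, CHRNA1 alone was called. RPKM was higher in the abnormal library for 7 of the 9 members, against 66.0% of all genes. The median log2 ratio was 0.62 over the 8 members with more than 3 reads in either library, and 0.39 over the 10129 genes of the whole tables with as many reads. Most genes stood higher in the abnormal library, with a median log2 ratio of 0.36 over those 7493 genes. Once this median was subtracted from every log2 ratio (rescaling), 6 of the 9 members were higher, against 49.7% of all genes, and CHRNA1 alone remained called, against 6.48% of all genes called up-regulated. The mitochondrial transcripts held 36.0% of the abnormal and 46.1% of the normal reads, and with totals that leave these transcripts out each log2 ratio was 0.25 lower, and 986 genes were called up-regulated and 366 down-regulated. RAPSN was counted as higher or as lower depending on this scaling, and rescaled values are given below beside each member.

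CHRNA1, the acetylcholine-binding subunit (chromosome 15, 75611929 to 75617106 on Sscrofa9), was read 119 times in the abnormal library and 42 times in the normal one. Its level was 20.5 RPKM (95% Poisson interval 17.0 to 24.6) against 7.09 RPKM (5.11 to 9.59), 2.89 times as high in the abnormal library. The intervals were separate. The log2 ratio was 1.53 (95% interval 1.03 to 2.04, from the Wilson interval of the reads' share), with an FDR of 3.66e-09 by the Audic-Claverie test, and it was 1.17 after rescaling by the median, still called. With an assumed biological coefficient of variation of 0.2 between pooled libraries, edgeR's exact test gave an FDR of 0.0318, and the call was lost.

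CHRND, the delta subunit (chromosome 15, 125407322 to 125414782), was read 55 times in the abnormal library and 31 times in the normal one. Its level was 5.55 RPKM (4.18 to 7.22) against 3.06 RPKM (2.08 to 4.35), and these intervals overlapped slightly. The log2 ratio was 0.86 (0.23 to 1.49), which was not called (FDR 0.0295, Audic-Claverie test), and it was 0.50 after rescaling.

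CHRNG, the fetal gamma subunit, starts 4222 bases beyond the end of CHRND on the same strand (chromosome 15, 125419005 to 125425409). Reads numbered 38 in the abnormal library, against 58 in the normal one, or 3.82 RPKM (2.70 to 5.24) against 5.71 RPKM (4.33 to 7.38). The log2 ratio was -0.58 (-1.17 to 0.0070) and was not called (FDR 0.132, Audic-Claverie test). After rescaling it was -0.94 with an FDR of 0.00652. CHRNG thus had fewer reads in the abnormal library and its neighbour CHRND more, and the interval of CHRNG reached 0 before rescaling.

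CHRNE, the adult epsilon subunit (chromosome 12, 49207360 to 49211738), had 26 and 38 reads, or 2.75 RPKM (1.80 to 4.03) in the abnormal against 3.94 RPKM (2.78 to 5.40) in the normal library. Its log2 ratio was -0.52 (-1.23 to 0.20; FDR 0.323, Audic-Claverie test), and -0.88 after rescaling, with an FDR of 0.0496. Neither value was called. Reads of the fetal and of the adult subunit were found in each library, and both were fewer in the abnormal library.

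**Figure D1:**
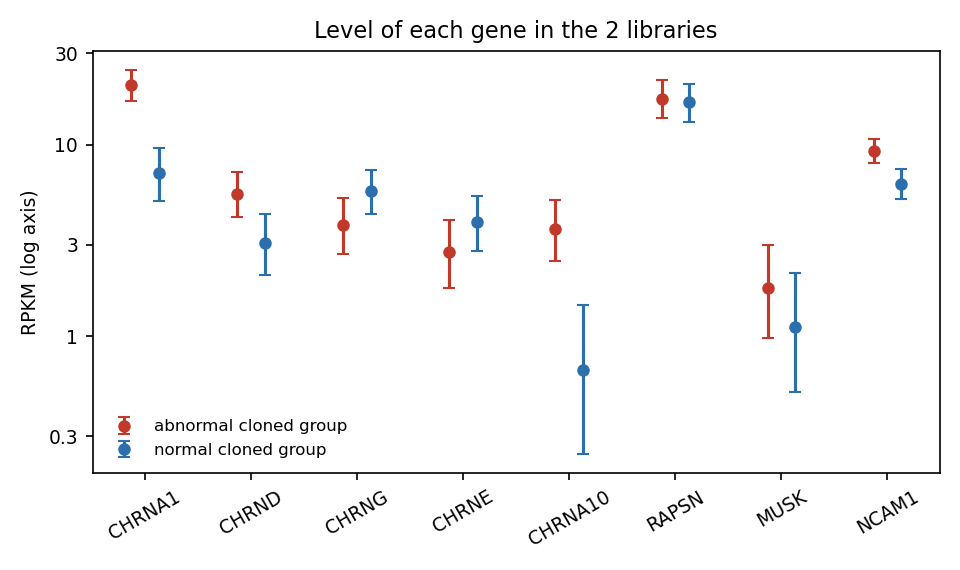
Level of 8 members in RPKM on a log axis in the abnormal (red) and the normal (blue) library; points are single libraries and bars are 95% Poisson intervals of the reads, which cover counting error only. CHRNA1, at 20.5 against 7.09 RPKM, and CHRNA10, at 3.63 against 0.666 RPKM, have separate intervals, whereas CHRNG and CHRNE lie lower in the abnormal library with overlapping intervals; CHRNA5, with 1 and 0 reads, is not drawn.

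**Figure D2:**
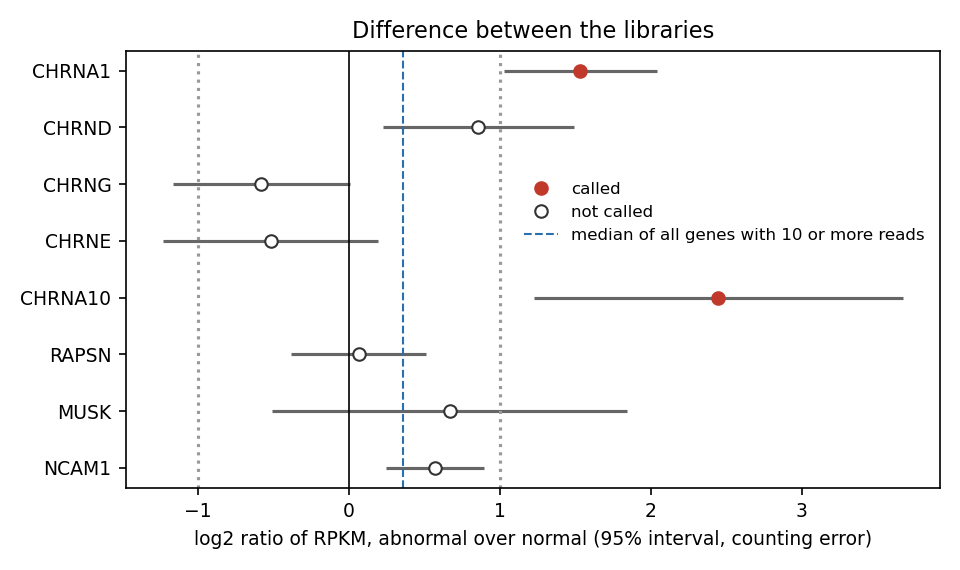
Log2 ratio of RPKM, abnormal over normal library, for 8 members, with 95% Wilson intervals as lines; filled points were called and open points were not, dotted lines mark log2 ratios of 1 in size and the dashed line the median of 0.36 over the 7493 genes read at least 10 times in each library. CHRNA1 and CHRNA10 lie right of the upper dotted line, and CHRNG and CHRNE lie left of 0.

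The subunits of the muscle receptor were also compared with each other inside each library, since such a ratio does not depend on library totals or on the scaling. CHRNA1 held 119 of the 238 reads of CHRNA1, CHRND, CHRNG and CHRNE in the abnormal library, or 50.0% (95% Wilson interval 43.7% to 56.3%), and 42 of 169, or 24.9% (18.9% to 31.9%), in the normal library. CHRNG held 16.0% (11.9% to 21.2%) in the abnormal and 34.3% (27.6% to 41.8%) in the normal library. CHRNE held 10.9% (7.56% to 15.5%) and 22.5% (16.8% to 29.4%), and CHRND 23.1% (18.2% to 28.9%) and 18.3% (13.2% to 24.9%). These shares of reads depend on the lengths of the gene models, which differ between the subunits. Per length, CHRNA1 led in both libraries, with 62.9% of the summed RPKM of the 4 subunits in the abnormal library against 35.8% in the normal one, and CHRNG held 11.7% and 28.8%. The summed RPKM was 32.6 in the abnormal library, against 19.8 in the normal one.

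**Figure D3:**
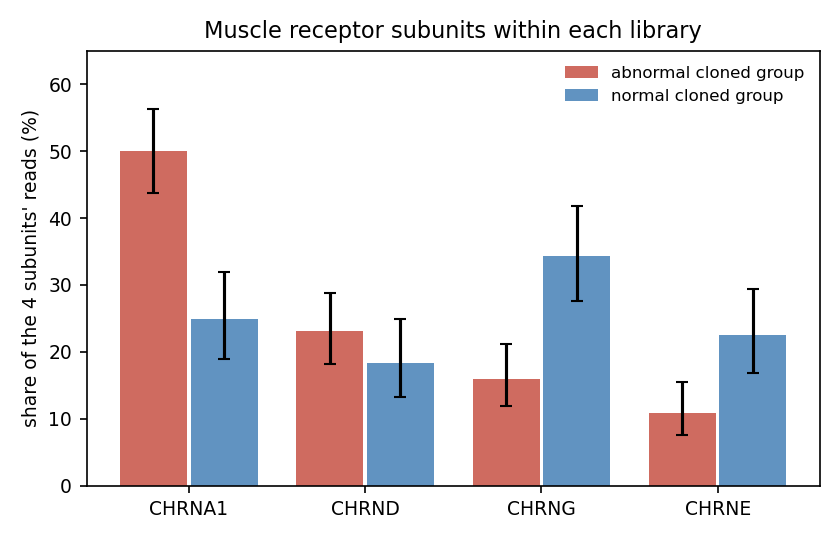
Share of the reads of the 4 muscle receptor subunits in percent, in the abnormal (red, 238 reads) and the normal (blue, 169 reads) library, with 95% Wilson intervals, not divided by length. CHRNA1 holds 50.0% against 24.9%, and CHRNG 16.0% against 34.3%.

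All 6 pairs of these subunits were compared by the conditional odds ratio of their reads with its exact 95% interval, which was not adjusted for the number of pairs. The ratio of CHRNA1 to CHRNG was 4.30 times as high in the abnormal as in the normal library (2.44 to 7.69), and the ratio of CHRNA1 to CHRNE 4.11 times as high (2.15 to 7.99). The ratio of CHRND to CHRNG was 2.69 times as high (1.42 to 5.17) and that of CHRND to CHRNE 2.58 times as high (1.27 to 5.33). In RPKM, CHRND was 1.45 times CHRNG in the abnormal library and 0.537 times CHRNG in the normal library, the opposite order, although the Poisson intervals of these neighbouring genes overlapped in each library. Between CHRNA1 and CHRND the change was 1.59 times (0.871 to 2.91), an interval that includes no difference. The fetal to adult ratio, CHRNG to CHRNE, in RPKM was 1.39 (abnormal) and 1.45 (normal), and its change was 0.958 times (0.479 to 1.93). No difference in that ratio was detectable at this depth, but the interval still allows a change of up to 1.93 times in one direction or to 0.479 times in the other.

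CHRNA10, a neuronal-type subunit best known from the hair cells of the inner ear (chromosome 9, 5833070 to 5837806), was read 32 times in the abnormal library but 6 times in the normal one. Its level was 3.63 RPKM (2.48 to 5.12) against 0.666 RPKM (0.244 to 1.45), and the intervals did not meet. The log2 ratio of 2.45 (1.22 to 3.67) was called with an FDR of 9.22e-05 (Audic-Claverie test). After rescaling by the median the log2 ratio was 2.09 and the FDR 0.00181, above the threshold of 0.001, so that the call was lost. CHRNA5, an accessory subunit of neuronal receptors (chromosome 7, 53390427 to 53404417), was read once, in the abnormal library, and 0 times in the normal library, at or under the 3 reads taken as the limit of detection, and no ratio is given.

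RAPSN, the cytoplasmic anchor of the receptor (chromosome 2, 13301643 to 13305456), was read 81 times in the abnormal library and 79 times in the normal one. Its level was 17.4 RPKM (13.8 to 21.7) against 16.6 RPKM (13.2 to 20.7), almost the same in both. The log2 ratio was 0.067 (-0.38 to 0.51) and turned to -0.29 after rescaling, in neither case called. MUSK, the receptor kinase of the agrin pathway (chromosome 1, 264626025 to 264630618), had 14 and 9 reads, or 1.78 RPKM (0.976 to 2.99) against 1.12 RPKM (0.513 to 2.13). Its log2 ratio of 0.67, or 0.31 after rescaling, had an interval from -0.51 to 1.84 before rescaling, so that no difference was detectable at this depth.

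NCAM1, an adhesion molecule of nerve, Schwann cells, satellite cells and immature or denervated fibres (chromosome 9, 39876973 to 39943731), was read 186 times in the abnormal library and 128 times in the normal one. It stood at 9.28 RPKM (7.99 to 10.7) against 6.25 RPKM (5.21 to 7.43), with separate intervals. The log2 ratio of 0.57 (0.25 to 0.89) did not reach the thresholds (FDR 0.00255, Audic-Claverie test) and was 0.21 after rescaling. Of 15 listed markers of Schwann cells and nerve, 6 had an entry, and 0 were called in either direction. Of these 6 entries, 3 had the higher RPKM in the abnormal library and 3 the lower, and the neurofilament gene NEFM was listed at 0 reads against 1. Of 8 listed markers of satellite cells and myoblasts, 5 had an entry, 0 were called, and their RPKM summed to 58.7 and 64.1. Before and after rescaling, 2 of these were higher in the abnormal library and 3 were lower. The higher ones were MYOD1 (30.4 against 21.4 RPKM) and MYF5 (4.55 against 2.71 RPKM). After rescaling, 2 of the lower ones, CDH15 and CHODL, were called down-regulated, against 3.97% of all genes. The part of these cells in the NCAM1 values was not tested, and in bulk muscle fewer cells of a type and less RNA per cell cannot be told apart.

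Compared per length, RAPSN had the highest level among the members in the normal library, and CHRNA1, second there, stood first in the abnormal library. The Poisson intervals of CHRNA1 and RAPSN were separate in the normal library but overlapped in the abnormal library. In the abnormal library the order was CHRNA1, RAPSN, NCAM1, CHRND, CHRNG, CHRNA10, CHRNE, MUSK and CHRNA5, in which RAPSN and NCAM1, NCAM1 and CHRND, and MUSK and CHRNA5 were neighbours with separate intervals. In the normal library it was RAPSN, CHRNA1, NCAM1, CHRNG, CHRNE, CHRND, MUSK, CHRNA10 and CHRNA5, and beyond the first pair all neighbours overlapped. Among all 12535 genes CHRNA1 lay at the 82.6th percentile of RPKM in the abnormal and the 71.2nd in the normal library, and CHRNA10 at the 52.4th and the 30.7th. The lengths of all 9 entries were multiples of 3, from 729 to 3144 bases, as in gene models without untranslated regions, and the models of CHRNA1 (909 bases), RAPSN (729 bases) and MUSK (1230 bases) may hold only part of the transcript, which bears on levels between genes and not on the ratio between libraries.

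Among the members, the share of the gene model covered by reads followed the read numbers. The authors' coverage column gave 99.34% of the CHRNA1 model as covered in the abnormal library, against 78.44% in the normal one. Coverage of CHRND was 76.32% and 67.89%, that of CHRNG 67.31% and 82.31%, and that of CHRNE 51.48% and 59.45%. For CHRNA10 it was 48.37% in the abnormal against 17.93% in the normal library. The covered share was higher in the abnormal library for each member with more reads there, and lower for CHRNG and CHRNE.

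The partners of these genes at the junction were described by 5 lists with 75 symbols in all, of which 53 had an entry, giving 55 entries. Of these, 12 (21.8%) were called up-regulated, against 12.0% of all genes and 18.5% of those read at least 10 times in each library, and 0 down-regulated, and 43 had the higher RPKM in the abnormal library. The 55 entries were not limited to genes read that often. Under that filter 12 were also called, without RUNX1 (3 reads in the normal library) and with DOK7. All 5 lists were written with earlier results of these data known, and FBXO32 and ANKRD1 in particular were known to differ. Of the 12 called over all genes, 5 were from the denervation response list and 7 from the other lists. After rescaling by the median, 9 were called up-regulated and 1 down-regulated, against 6.48% and 3.97% of all genes. The median log2 ratio of the 50 entries with more than 3 reads in either library was 0.55, and 0.19 after rescaling.

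In the list of receptor clustering and signalling, up-regulation was called for 3 of 17 entries (17.6%) and down-regulation for 0, with a median log2 ratio of 0.47. The shares called up-regulated were 12.0% of all genes and 18.5% of those read at least 10 times in each library. LRP4, the agrin receptor, was read 41 times in the abnormal library and 75 times in the normal one, a log2 ratio of -0.84 (-1.39 to -0.29) that was not called (FDR 0.00823, Audic-Claverie test). After rescaling it was -1.20 and called down-regulated, with an FDR of 6.72e-05. DOK7, the cytoplasmic activator of MuSK, was read 77 and 39 times, with a log2 ratio of 1.01 (0.46 to 1.56), with an FDR of 0.00145, just above the threshold of 0.001, and 0.65 after rescaling. LRP4 thus had fewer and DOK7 more reads in the abnormal library, and neither was called at these thresholds over all genes. With the deposited totals, DOK7 was called up-regulated when genes under 10 reads in either library were left out (FDR 0.000926, Audic-Claverie test) or when an FDR of up to 0.05 was allowed. CRKL, an adaptor that binds phosphorylated DOK7, had 125 and 18 reads, a log2 ratio of 2.83 (2.12 to 3.53) and a call that held at 2.47 after rescaling. ABL1, a tyrosine kinase, was read 355 and 107 times, with a log2 ratio of 1.76 (1.45 to 2.07), also called after rescaling. HSP90AB1, a chaperone, was called at a log2 ratio of 1.09 but not after rescaling, at 0.74, and since HSP90 genes have near-identical copies its unique reads are an uncertain measure. NRG1, the neuregulin ligand, had 2 and 8 reads, and its receptor ERBB3 had 27 and 15, with log2 ratios of -1.97 (-4.03 to 0.088) and 0.88 (-0.017 to 1.78), neither called.

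In the synaptic basal lamina list 0 of 8 entries were called, against 12.0% of all genes called up-regulated and 1.45% down-regulated. The median log2 ratio was 0.18 over the 6 entries above 3 reads, and -0.18 after rescaling. LAMB2, the synaptic laminin beta chain, was at 40.9 against 33.0 RPKM, and LAMA4, a laminin alpha chain, at 17.7 against 21.4 RPKM. Among the utrophin and dystrophin complex 2 of 9 entries (22.2%) were called up-regulated, against 12.0% of all genes and 18.5% of those read at least 10 times in each library. UTRN, the synaptic relative of dystrophin, was read 67 times in the abnormal library and 22 times in the normal one, a log2 ratio of 1.64 (0.95 to 2.33) and an FDR of 6.92e-06 (Audic-Claverie test), and it stayed called at 1.28 after rescaling, with an FDR of 0.00099, but not with TMM scaling, at 1.24 and an FDR of 0.00146. SCN4A, the voltage-gated sodium channel of skeletal muscle, was read 786 and 329 times, with a log2 ratio of 1.29 (1.10 to 1.47), which lay below the threshold at 0.93 after rescaling. Among 10 entries for transcription of synaptic genes 2 were called up-regulated. These were MYF6, a myogenic factor of mature fibres (391 and 130 reads, log2 ratio 1.62, 1.33 to 1.91), and TCF12, an E-protein that pairs with myogenic factors (266 and 76 reads, log2 ratio 1.84, 1.47 to 2.21), and both kept their calls after rescaling. MYOG, the myogenic factor that drives receptor genes in fibres without nerve supply, was read 1057 and 808 times, with a log2 ratio of 0.42 (0.29 to 0.55), not called, and 0.059 after rescaling.

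Of the 12 entries of the denervation response list 5 (41.7%) were called up-regulated and 0 down-regulated. Over all genes 12.0% were called up-regulated, and 18.5% of those read at least 10 times in each library. After rescaling, 4 entries of the list were called up-regulated, against 6.48% of all genes. Since the list was written with earlier results known, in particular those of FBXO32 and ANKRD1, which the study names CARP, these counts are not independent evidence of a direction. RUNX1, a transcription factor raised in denervated fibres, was read 44 times in the abnormal library and 3 times in the normal one, 8.36 against 0.558 RPKM. Its log2 ratio was 3.91 (2.30 to 5.51), with an FDR of 1.40e-09 (Audic-Claverie test), and 3.55 after rescaling. The ubiquitin ligase genes FBXO32 and FBXO30 had log2 ratios of 3.86 and 3.25, ANKRD1, a stretch-responsive ankyrin repeat gene, 5.74, and CDKN1A, a cell-cycle inhibitor, 1.24, the last without a call after rescaling. DACH2, KCNN3 and NGFR had at most 3 reads in each library. MYOG, which is also on this list, was called in neither scaling. Of other genes known to rise in denervated fibres, CHRNA1 was called in both scalings, and CHRND, CHRNG and NCAM1 in neither. Whether the nerve supply of the fibres differed was not tested.

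**Figure D4:**
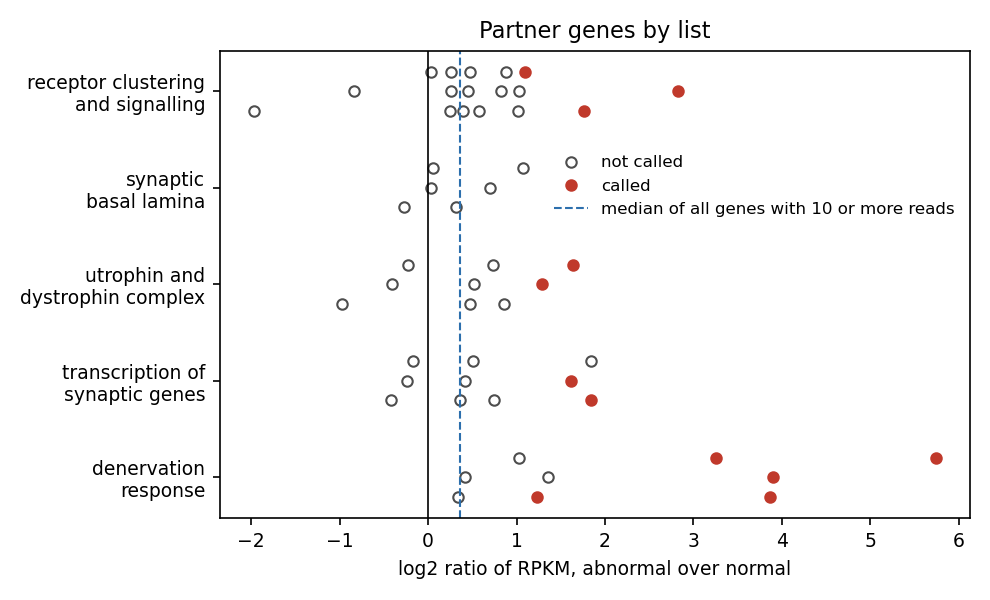
Log2 ratio of RPKM, abnormal over normal library, of the partner genes with more than 3 reads in either library, by list; filled points were called, open points were not, and the dashed line marks the median of 0.36 over the 7493 genes read at least 10 times in each library. The 5 called entries of the denervation response list reach from 1.24 to 5.74, while no entry of the synaptic basal lamina list is filled.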

How the data were processed

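RNA-seq of biceps femoris muscle was analysed from 1 abnormal and 1 normal pooled library. The authors removed adaptor and low-quality reads, mapped with SOAPaligner/soap2 (at most 2 mismatches) to Sscrofa9 transcripts, and deposited for each transcript the count of unique reads, the RPKM and the percent of its length covered. Transcripts without a read were taken as 0. Whether counting used strand is not given in the sources used here. The deposited RPKM were recomputed to within a relative difference of 3.35e-08.

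Log2 ratios used the deposited RPKM, with 0 set to 0.001. The two-sided Audic-Claverie test on the counts, with Benjamini-Hochberg adjustment over all 12535 genes, followed the study's methods (FDR of at most 0.001, log2 ratio of at least 1 in size). It was tested on simulated data. Poisson, Wilson and conditional odds ratio intervals are at 95% and cover counting error only; 3 reads correspond to 0.470 and 0.460 RPM (reads per M unique reads). Entrez numbers (8429) were matched to RefSeq symbols of Sscrofa11.1 for 7194 entries, and no coordinates were taken from that build.

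The members and lists were chosen with earlier results of these data known. Partner genes and cell type markers were matched by symbol or full protein description; all members are named, as are all called partner genes up to 8 a list and LRP4, DOK7, MYOG, RUNX1, NRG1 and ERBB3. COLQ, GABPA and HDAC4, also on that list, were not analysed here, and the values of 2 further listed genes are not reported here. Alternatives were median-ratio and TMM scaling, totals without mitochondrial or the 20 most abundant transcripts, the exact tests of Fisher and of edgeR (assumed variation 0.2 or 0.4), pseudocounts of 1 and 0.1, a filter that kept genes read 10 or more times in each library, an FDR of 0.05 and a log2 ratio of 2. Python 3.11.15, numpy 2.4.6, pandas 2.3.3, scipy 1.17.1, matplotlib 3.10.9, R 4.3.3 and edgeR 4.0.16 were used.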

Additional observations from a re-analysis of the deposited data

How the results depend on the processing

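No paired analysis was possible because each group has 1 library, and for the same reason no library could be left out. The 2 up-regulated calls among the members became 1 with median-ratio scaling, TMM scaling, totals without the 20 most abundant transcripts, a minimum of 10 reads in both libraries or a log2 ratio of at least 2. They became 0 with edgeR (exact test, variation set to 0.2 or 0.4) and with members matched by symbol alone, which leaves out CHRNA1 and CHRNA10. None of the alternatives run called a member down-regulated. Over all genes the up-regulated calls fell from 1510 to 812 with median-ratio scaling and to 243 and 2 with edgeR at 0.2 and 0.4, and up-regulated genes were 89.2% of all calls with the totals as deposited but 62.0% with median-ratio scaling and 57.8% with TMM, where down-regulated genes numbered 182, 498 and 548.

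The log2 ratio of RAPSN changed sign under each of the 4 scalings, to -0.29 (median ratio), -0.33 (TMM), -0.18 (without mitochondrial transcripts) and -0.24 (without the 20 most abundant). The 12 up-regulated partner genes became 5 with edgeR at 0.2, 1 at 0.4, 5 with a log2 ratio of at least 2 and 7 without the denervation response list, a setting added after the data were seen. The down-regulated partner genes became 1, LRP4, with median-ratio scaling, TMM scaling and totals without mitochondrial or the 20 most abundant transcripts. The members' median log2 ratio, 0.67 with CHRNA5 included, was between 0.28 and 0.76 under the alternatives, and the change of the CHRNG to CHRNE ratio was 0.956 with 0.5 reads added to each count. Members with under 60 reads, and above all MUSK and CHRNA5, are limited by depth.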

Other observations

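Markers of other cell types gave these values. Of the 6 fibroblast entries, which included COL1A2 and DCN, 0 were called, and their RPKM summed to 2546 in the abnormal library, against 2821 in the normal one. In the abnormal library 5 were lower and 1, PDGFRA (71 reads against 40), was higher. The 4 endothelial entries summed to 44.1 and 41.8 RPKM, with 0 called, and 2 were higher and 2 lower in the abnormal library. Among them PECAM1 stood at 28.8 against 31.5 RPKM and KDR at 10.9 against 6.50 RPKM. RPKM was lower in the abnormal library for all 7 blood and immune entries, with sums of 1821 and 2727 and 0 called. The globins HBA (1343 against 2030 RPKM) and HBB (472 against 686 RPKM) made up most of these sums. Of the 7 entries, among which CD68 had a second entry, 5 had more than 3 reads in either library. After rescaling by the median 1, the leukocyte gene PTPRC (5 reads against 22), was called down-regulated, against 3.97% of all genes. The 2 adipocyte entries, PLIN1 and LEP, had at most 2 reads.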
